A study of Rattus norvegicus with 18 samples.

Results

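Senexin A alone at 10 µM was compared with phenylephrine (PE) alone at 10 µM in cultured neonatal rat ventricular cardiomyocytes, over all genes. The libraries were chosen by their treatment labels, with no measured value involved: 3 of Senexin A and 3 of PE, which are 6 of the 18 polyadenylated RNA libraries in the series. The cells came from Wistar rats at postnatal day 3. All cells were kept in AraC, a drug that kills dividing cells, for 48 h and without serum for 24 h, and were then treated for 48 h with the media replaced at 24 h. The 3 Vehicle libraries, which received neither agent, served as the level from which both treatments depart, and PE combined with 10 µM Senexin A is given where it places a gene. The labels do not say whether replicates were separate cultures or litters, so each p-value rests on how far these libraries scatter, and that scatter may be technical only. The labels name no sorting of the cells, and what they had in common (neonatal origin, AraC and serum withdrawal) was present in the controls too.

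PE activates alpha1-adrenergic receptors, which signal through Gq, protein kinase C, calcium and the MAP kinases, and in neonatal cardiomyocytes it causes growth of the cell and re-expression of fetal genes such as natriuretic peptides and skeletal alpha-actin. Senexin A inhibits CDK8 and its paralog CDK19, the kinases of the Mediator kinase module (with cyclin C, MED12 and MED13), which binds the Mediator complex and tunes how transcription factors engage RNA polymerase II. Values are FPKM, fragments scaled by transcript length and by the number of mapped fragments. Differences are on the log2(FPKM + 1) scale, Senexin A minus PE unless stated, with their standard error (SE), and were tested with limma with Benjamini-Hochberg adjustment over the 10478 genes tested. A gene was called at an adjusted p under 0.05. That scale understates the change of low genes.

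Summed FPKM ran from 810428 to 853958 in the PE libraries and from 699695 to 746492 in the Senexin A libraries, and the 10 highest genes took 19.24% to 20.72% and 11.95% to 14.55% of these sums. The absolute depth is unknown. Cardiomyocyte markers were abundant in all of these libraries: 10 markers summed to 106400 to 125600 FPKM in PE, 60070 to 76720 in Senexin A and 41040 to 57060 in Vehicle. The 11 fibroblast markers summed to 1272 to 2008 FPKM in PE, 1721 to 3271 in Senexin A and 1873 to 3146 in Vehicle. Among them, Col1a2 was at the table's floor of 0.01 FPKM in every Senexin A library, while Col1a1 read 641, 682 and 1158 FPKM there. The 10 endothelial markers summed to 14.49 to 16.41 FPKM in PE, 22.68 to 30.21 in Senexin A and 19.35 to 23.18 in Vehicle. Of these, Esam alone had means of 7.22 FPKM in PE and 18.9 in Senexin A. The median difference of the 5 tested endothelial markers was -0.24. The 10 macrophage markers summed to 20.07 to 89.49 FPKM in PE, 77.06 to 395.8 in Senexin A and 39.5 to 119.4 in Vehicle. Senexin A replicate 2 held the highest macrophage sum, with lysozyme (Lyz2) at 73.3, 355 and 64.3 FPKM in Senexin A replicates 1 to 3. In bulk RNA, fewer cells of a type and less RNA per cell cannot be told apart, and the part of these markers in the results below was not tested.

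The 2 treatments differed across much of the transcriptome. Of the 10478 genes tested, 3478 (33.2%) were called, 1568 higher in Senexin A (15%) and 1910 lower (18.2%). At least a 2-fold difference was reached by 185 of the higher genes (1.77%) and by 252 of the lower ones (2.41%). At the other end, 5382 genes (51.4%) had a 95% interval of the difference wholly between -0.5 and 0.5, a margin within which the levels were taken as alike. Against Vehicle in the same fit, PE had 1874 genes higher (17.9%) and 1331 lower (12.7%), and Senexin A had 961 higher (9.17%) and 735 lower (7.01%). These comparisons share libraries, so they are set side by side and no overlap is drawn from them. The fit took no account of replicate numbers, and with these as a block 4621 genes were called between Senexin A and PE.

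**Figure D1:**
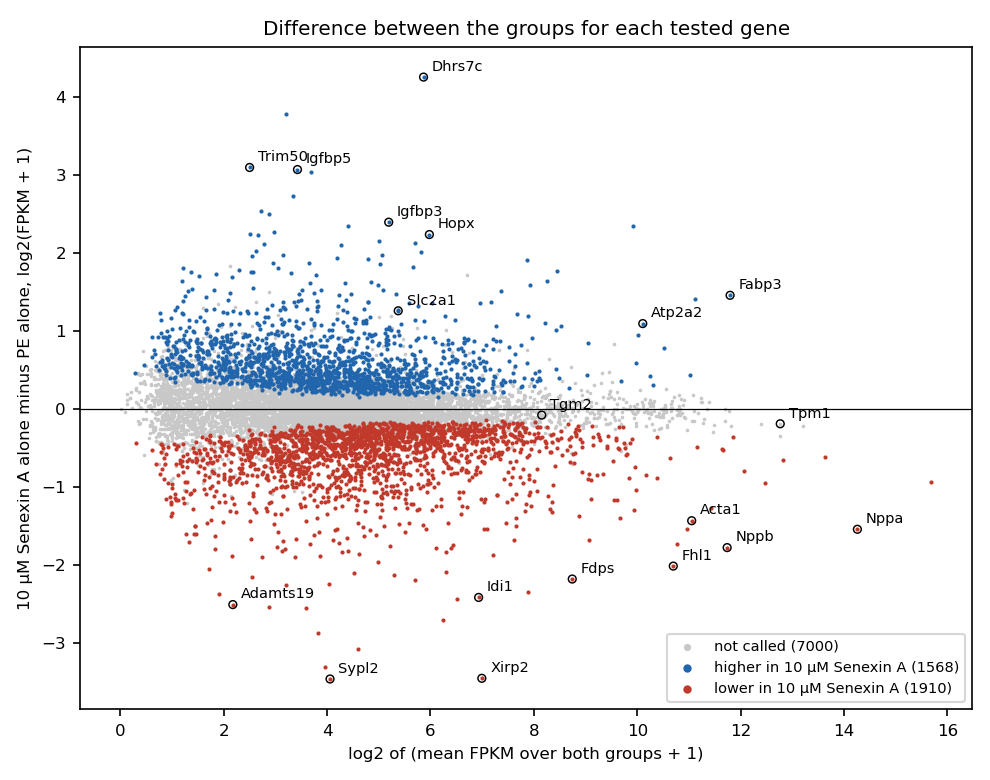
Each point is 1 of the 10478 tested genes. The horizontal axis gives the log2 of the mean FPKM over both groups plus 1, the vertical axis the difference of 10 µM Senexin A alone minus PE alone on the log2(FPKM + 1) scale, with called genes in blue (1568 higher) or red (1910 lower) and named genes circled. Dhrs7c lies highest at 4.25 and Sypl2 and Xirp2 lowest at -3.46 and -3.45.

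The fetal and hypertrophic genes were lower in Senexin A than in PE, and several of them still stood above Vehicle. Of 17 genes listed, 16 were tested: 8 were lower (18.2% of all tested genes were), none was higher (15% of all were), 2 lay within the margin (51.4% of all did), and the median difference was -0.74, against -0.0006 over all tested genes. Against Vehicle, 11 of the 16 were higher in PE (median 1.42; 17.9% of all tested genes were) and 6 were higher in Senexin A (median 0.46; 9.17% of all were). The median moved to -0.48 with 7 lower when libraries were quantile normalized.

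Skeletal alpha-actin (Acta1), a sarcomeric actin of the fetal heart, read 3395, 3002 and 2837 FPKM in PE replicates 1 to 3 and 1549, 1088 and 870.0 in Senexin A, with Vehicle at 219, 169.8 and 155. Every Senexin A library was below every PE library and above every Vehicle library. On rn5, the authors' build, the gene lies at chr19:67389898-67392911. The difference from PE was -1.43 ± 0.18, adjusted p = 1.9e-05, and the difference from Vehicle was 2.66 ± 0.18, adjusted p = 4.1e-07. With PE and 10 µM Senexin A together, Acta1 read 6075, 5009 and 5195 FPKM.

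The RefSeq promoter window of Acta1 (250 bases before to 50 after the gene's start) is shown because this gene kept the largest excess over Vehicle among the fetal genes named here. It lies at chr19:68784145-68784444 of build GRCr8 on the minus strand, printed 5′ to 3′ along the gene, with a CArG box (the name of a CC, 6 A or T, GG motif) and a TATAAA in capitals.
Acta1: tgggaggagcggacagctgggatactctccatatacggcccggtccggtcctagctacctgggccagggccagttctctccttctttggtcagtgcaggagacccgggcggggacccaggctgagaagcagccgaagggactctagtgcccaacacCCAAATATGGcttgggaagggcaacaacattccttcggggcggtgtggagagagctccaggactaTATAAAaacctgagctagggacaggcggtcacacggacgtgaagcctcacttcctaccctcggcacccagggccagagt
A CArG box was present in 1.77% of all 27457 promoter windows and TATAAA in 15.3%, searched on both strands. A match is a description of the letters only.

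B-type natriuretic peptide (Nppb), a secreted hormone used as a marker of ventricular stress, read 5434, 5318 and 4911 FPKM in PE, 2289.9, 1552 and 989 in Senexin A and 923, 468 and 295 in Vehicle. It was lower than in PE (-1.78 ± 0.33, adjusted p = 0.0006) and higher than in Vehicle (1.59 ± 0.33, adjusted p = 0.0038). The Senexin A libraries were spread more widely than those of PE and overlapped neither group. Atrial natriuretic peptide (Nppa) read 32018, 26212 and 27488 FPKM in PE and 15434, 10716 and 5639 in Senexin A, a difference of -1.54 ± 0.45, adjusted p = 0.015, with groups that did not overlap. That call was lost without Senexin A replicate 3 (adjusted p = 0.085) and with quantile normalization (adjusted p = 0.3), and the difference of Nppa from Vehicle was not called (1.29 ± 0.45, adjusted p = 0.063). Vehicle read 9359, 4409 and 1535 FPKM for Nppa, each below the same-numbered Senexin A library, and the fit took no account of these numbers. Ankrd1, a stretch-responsive titin-associated repressor, read 6996, 7972 and 7213 FPKM in PE and 4243, 4373 and 3038 in Senexin A (-0.94 ± 0.17, adjusted p = 0.00065), again between PE and the Vehicle mean of 2297 FPKM.

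Of 3 more of these genes, Xirp2 and Csrp3 showed no called difference from Vehicle, and Fhl1 was called above it. Xirp2, which binds actin at intercalated discs, read 235, 262 and 198 FPKM in PE and 31.2, 17.6 and 14.7 in Senexin A. The groups were far apart (-3.45 ± 0.26, adjusted p = 1.8e-07), and the Senexin A level differed from Vehicle by -0.44 ± 0.26, adjusted p = 0.28. Csrp3, the muscle LIM protein of the Z-disc, read 2557, 3013 and 2478 FPKM in PE and 924, 825 and 677 in Senexin A (-1.74 ± 0.20, adjusted p = 8.3e-06), against 0.39 ± 0.20, adjusted p = 0.19 from Vehicle. Fhl1, a LIM protein of the sarcomere that takes part in hypertrophic signalling, read 2739, 2757 and 2469 FPKM in PE and 797, 621 and 569 in Senexin A (-2.01 ± 0.14, adjusted p = 6.2e-08), and remained above Vehicle by 0.77 ± 0.14 (adjusted p = 0.0017). PE and Senexin A did not overlap for any of the 3 genes. Vehicle read 43.1, 22.9 and 21.3 FPKM for Xirp2, each above the same-numbered Senexin A library. For Csrp3 Vehicle read 853, 600.3 and 443 FPKM, each below the same-numbered Senexin A library. These differences from Vehicle took no account of replicate numbers.

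**Figure D2:**
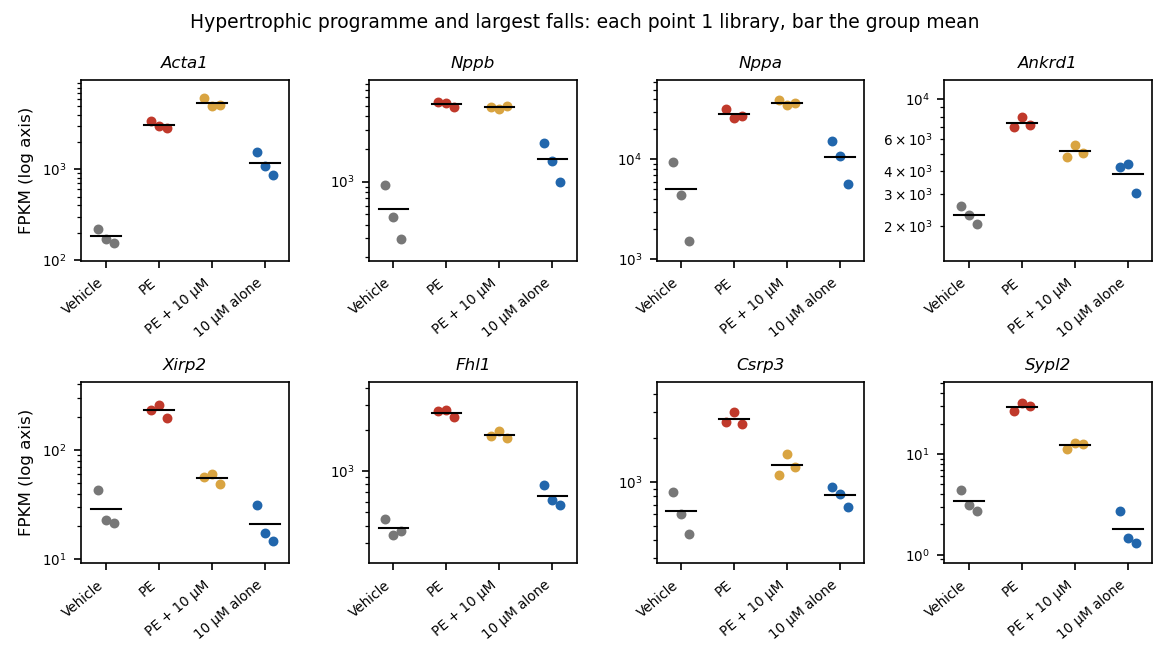
Each panel is 1 gene, with FPKM on a log axis, 1 point per library and a bar at the group mean for Vehicle, PE, PE with 10 µM Senexin A and 10 µM Senexin A alone. Acta1 and Nppb in Senexin A alone lie between Vehicle and PE (means 1169 and 1610.5 FPKM), while Xirp2 and Sypl2 lie at 21.2 and 1.82 FPKM, beside Vehicle means of 29.1 and 3.41.

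The myosin heavy chains moved in opposite directions, with wide spread. Myh7, the beta (slow, fetal) chain, read 2782, 3019 and 3063 FPKM in PE and 831, 967 and 1294 in Senexin A, and Myh6, the alpha (fast, adult) chain, read 1175, 200.1 and 77.1 FPKM in PE and 1937, 1596 and 775 in Senexin A. Myh7 was lower (-1.54 ± 0.50, adjusted p = 0.025) and its groups did not overlap, while Myh6 was higher (2.34 ± 0.69, adjusted p = 0.016) with groups that overlapped through PE replicate 1. Both calls were fragile: Myh7 reached an adjusted p of 0.052 to 0.076 in 5 of the 6 fits that left out 1 library (all but Senexin A replicate 3), and Myh6 reached 0.056, 0.088 and 0.057 without PE 2, PE 3 and Senexin A 1, and 0.082 when fitted on the compared groups only. The 2 genes are near-identical neighbours that also share their loci with microRNAs, so the split of reads between them is uncertain. Against Vehicle, Myh6 was 2.46 ± 0.69 in Senexin A (adjusted p = 0.024) and 0.12 ± 0.69 in PE (adjusted p = 0.92).

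Of the 23 sarcomere genes listed, 19 were tested, and 9 were lower in Senexin A, 1 was higher and 8 lay within the margin (median -0.34). Over all tested genes 18.2% were lower, 15% higher and 51.4% within the margin. All 19 were higher in PE than in Vehicle (17.9% of all tested genes were), with a median of 0.95. In Senexin A 13 were higher than in Vehicle (9.17% of all were), with a median of 0.42. Desmin (Des), the muscle intermediate filament, read 1179.8, 1027 and 1011 FPKM in PE and 573, 417 and 454 in Senexin A (-1.16 ± 0.16, adjusted p = 4.1e-05), a level near the Vehicle mean of 506. Myoz2, the calcineurin-binding Z-disc protein calsarcin-1, read 772, 752 and 743 FPKM in PE and 363, 347 and 307 in Senexin A (-1.16 ± 0.10, adjusted p = 6.2e-07). The groups did not overlap for either gene.

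The thin filament nucleator Lmod2 (-1.54 ± 0.42, adjusted p = 0.0097, and 0.057 without Senexin A replicate 3) and the light chain Myl3 (-0.79 ± 0.14, adjusted p = 0.00041) were lower too, and the M-band gene Myom2 was higher (0.81 ± 0.27, adjusted p = 0.029). Myom2 lost its call without PE 1, PE 3, Senexin A 2 or Senexin A 3 (adjusted p 0.05 to 0.14), and leaving out PE 1, PE 3, Senexin A 2 or Senexin A 3 therefore left no sarcomere gene higher. Ventricular light chain Myl2, the top gene of every library, read 63015, 80214 and 65287 FPKM in PE and 35798, 42105 and 30942 in Senexin A (-0.94 ± 0.23, adjusted p = 0.005). With quantile normalization the top gene takes 1 value in every library by construction, so Myl2 differed by 0, and without the filter on low values its adjusted p was 0.21. Under quantile normalization the sarcomere list had 3 genes higher and 5 lower, with a median of -0.04, so its counts and median depended on the scaling. Tropomyosin (Tpm1) read 8149, 7413 and 6716 FPKM in PE and 6923, 6521 and 6051 in Senexin A, a 95% interval of -0.43 to 0.05, with the Vehicle mean at 3512; under quantile normalization it was 0.27 higher in Senexin A (adjusted p = 0.0097).

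Among the other large falls were several genes that were higher in PE than in Vehicle. Sypl2 (mitsugumin 29, chr2:230472383-230487115 on rn5), a membrane protein of the triad junction in striated muscle, read 26.4, 32 and 29.9 FPKM in PE and 2.69, 1.46 and 1.32 in Senexin A (-3.46 ± 0.21, adjusted p = 2.5e-08). Scn3b, an auxiliary beta subunit of voltage-gated sodium channels, read 23.7, 28.5 and 29.6 FPKM in PE and 2.75, 1.65 and 1.28 in Senexin A (-3.31 ± 0.24, adjusted p = 1.2e-07). Adamts19, a secreted metalloprotease, read 5.87, 6.89 and 7.32 FPKM in PE and 0.425, 0.224 and 0.406 in Senexin A (-2.51 ± 0.13, adjusted p = 4.5e-09). In all 3 the groups were separated several-fold, and Senexin A differed from Vehicle by -0.66 ± 0.21, -0.47 ± 0.24 and -0.38 ± 0.13, of which the value of Sypl2 was called (adjusted p = 0.044).

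Rnd1, a small GTPase that does not hydrolyse GTP, read 112, 139 and 136 FPKM in PE and 26.7, 17.4 and 14.4 in Senexin A (-2.71 ± 0.20, adjusted p = 1.7e-07). Tceal7 (-2.87 ± 0.30, adjusted p = 3.7e-06), Mllt11 (-2.43 ± 0.16, adjusted p = 4.5e-08) and the fast skeletal myosin-binding protein C Mybpc2 (-2.55 ± 0.27, adjusted p = 4.5e-06) were lower by similar amounts. Mllt11 shares its annotated locus with several other genes, so its value is uncertain. The antimicrobial peptide gene Leap2, whose locus overlaps Aff4, ranged from 4.9, 18.9 and 10.9 FPKM in PE to 1.73, 0.01 and 1.57 in Senexin A (-2.54 ± 0.78, adjusted p = 0.021), and its call was lost without PE 2, PE 3 or Senexin A 2 (adjusted p 0.086, 0.051 and 0.088). Casq1, the skeletal form of the calcium buffer of the sarcoplasmic reticulum, read 116, 57 and 78.1 FPKM in PE and 30.5, 11.8 and 13 in Senexin A (-2.19 ± 0.36, adjusted p = 0.00024).

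Sterol and fatty acid synthesis was the list with the largest share of lower members. Its genes encode the mevalonate pathway from acetyl-CoA to cholesterol, the enzymes of fatty acid synthesis, and their regulators, which the SREBP transcription factors control when sterol is low. Of 30 listed, 29 were tested: 26 were lower in Senexin A (18.2% of all tested genes were), none was higher (15%) and none lay within the margin (51.4%). The median was -0.99. Between the groups, 28 did not overlap, against 46.6% of all tested genes. Against Vehicle, 25 were higher in PE (17.9% of all tested genes were), with a median of 0.98. None was called higher (9.17% of all were) or lower (7.01%) in Senexin A, with a median of 0.07.

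The promoter windows of Idi1 and Fdps, the members with the largest falls, are shown because 16 of the 18 tested members with a RefSeq promoter (88.9%) held CCAAT on either strand, against 39.6% of all 27457 windows and 38.5% of the 8014 of tested genes. The windows lie at chr17:66547475-66547774 and chr2:176804767-176805066 of GRCr8, both on the minus strand, printed 5′ to 3′ along the gene with CCAAT or its reverse complement in capitals.
Idi1: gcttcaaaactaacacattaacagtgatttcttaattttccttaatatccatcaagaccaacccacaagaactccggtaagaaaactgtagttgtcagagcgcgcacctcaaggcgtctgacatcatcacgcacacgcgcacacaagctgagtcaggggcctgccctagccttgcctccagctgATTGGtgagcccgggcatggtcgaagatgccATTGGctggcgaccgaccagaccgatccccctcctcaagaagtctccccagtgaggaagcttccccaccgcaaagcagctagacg
Fdps: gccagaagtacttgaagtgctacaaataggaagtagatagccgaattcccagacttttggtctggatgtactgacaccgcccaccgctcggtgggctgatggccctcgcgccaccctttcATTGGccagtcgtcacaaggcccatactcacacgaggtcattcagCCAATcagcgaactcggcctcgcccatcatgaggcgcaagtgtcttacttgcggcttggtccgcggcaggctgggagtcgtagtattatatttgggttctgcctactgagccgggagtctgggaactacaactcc
Each window held 2 matches. For comparison, 6 of 22 oxidative phosphorylation promoters (27.3%) held CCAAT. The motifs TCACCCCAC (0.532% of all windows), TCACNCCAC (1.25%), TGACGTCA (2%), CACGTG (7.08%), TATAAA and the CArG box were searched as well, on both strands. CACGTG was in 2 of the 18 sterol windows, TATAAA in 1, and the other 4 in none. TCACCCCAC is contained in TCACNCCAC. The motif and the windows printed were picked after the matches were seen.

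Idi1, isopentenyl diphosphate isomerase, read 205, 197 and 212 FPKM in PE, 43.6, 31.6 and 38.1 in Senexin A and 35.6, 36.4 and 38.9 in Vehicle. Senexin A and Vehicle overlapped, and every PE library was higher. The difference from PE was -2.42 ± 0.25, adjusted p = 4.3e-06, and from Vehicle 0.02 ± 0.25, adjusted p = 0.97, though the Idi1 locus overlaps Wdr37. Fdps, farnesyl diphosphate synthase, read 727, 650.1 and 723 FPKM in PE and 179.9, 135 and 149 in Senexin A (-2.18 ± 0.18, adjusted p = 4e-07), and with both agents it stayed at 633, 682 and 682.

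An early enzyme of the pathway was lower as well. HMG-CoA synthase (Hmgcs1) read 293, 303 and 302 FPKM in PE, 102, 82.3 and 95 in Senexin A and 92.9, 88.1 and 93.7 in Vehicle (-1.68 ± 0.19, adjusted p = 7.6e-06). The pathway's transcriptional activator Srebf2 was lower by less (-0.80 ± 0.14, adjusted p = 0.00055). The 3 members that were not called, Acly (-0.31, adjusted p = 0.085), Lss (-0.45, adjusted p = 0.21) and Ebp (-0.42, adjusted p = 0.07), had values below 0, and each was called when the replicate number was added to the fit as a block (adjusted p 0.035, 0.042 and 0.043).

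**Figure D3:**
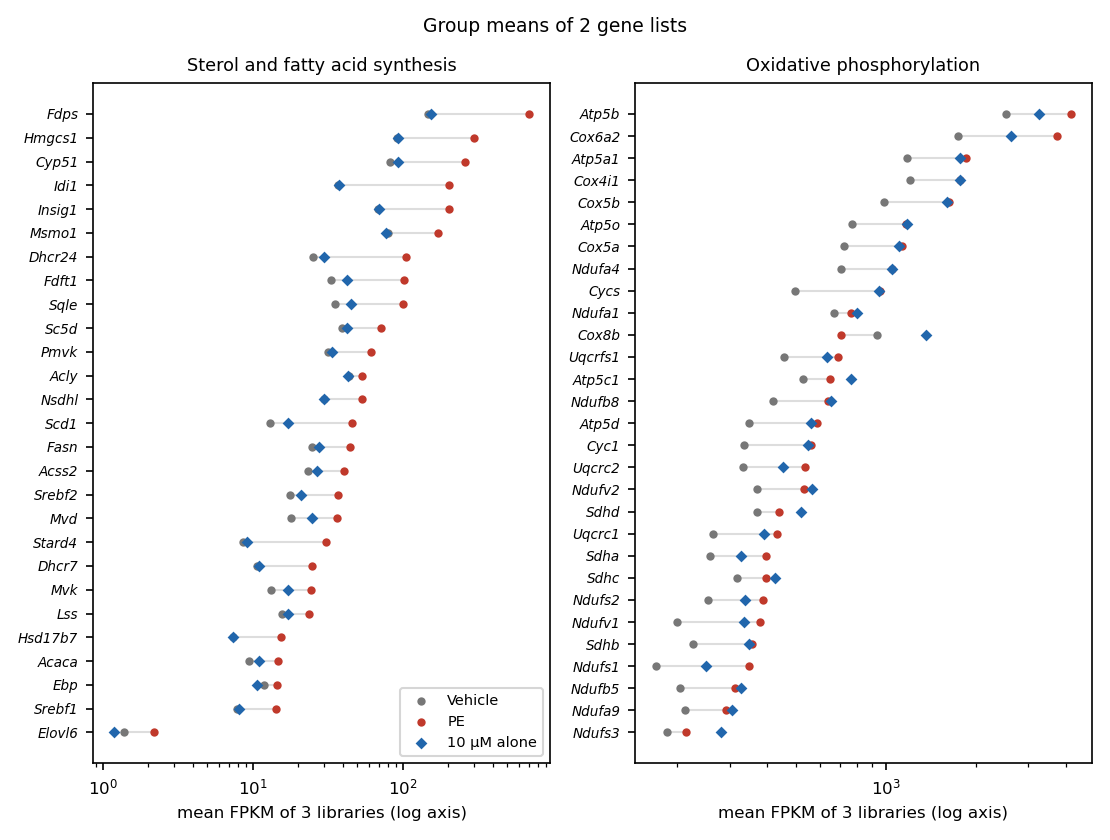
Each line is 1 gene, with the mean FPKM of 3 libraries on a log axis for Vehicle (grey), PE (red) and 10 µM Senexin A alone (blue diamonds). In sterol and fatty acid synthesis (left) the diamonds lie by the Vehicle points (Hmgcs1 93.3 against 91.6 FPKM), and in oxidative phosphorylation (right) most lie by the PE points (Cox4i1 1774 against 1776 FPKM).

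Cell cycle genes were mostly lower in Senexin A than in PE. Of 30 listed and tested, 26 were lower (18.2% of all tested genes were), none was higher (15%) and 2 lay within the margin (51.4%). The median was -0.73, and 29 had groups that did not overlap (46.6% of all tested genes). Against Vehicle, PE had 15 higher (17.9% of all tested genes were) and 2 lower (12.7%). Senexin A had none higher (9.17%) and 15 lower (7.01%), with a median of -0.41. Rrm2, the regulated subunit of ribonucleotide reductase, read 183, 193 and 201 FPKM in PE, 85.6, 56.8 and 57.7 in Senexin A and 109, 119 and 80.2 in Vehicle. All Senexin A libraries were below all PE libraries (-1.54 ± 0.18, adjusted p = 1.3e-05), and Senexin A was lower than Vehicle (-0.62 ± 0.18, adjusted p = 0.029).

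Cyclin B1 (Ccnb1), the mitotic cyclin, read 32.3, 37.2 and 40.9 FPKM in PE and 18.4, 13.6 and 11.4 in Senexin A (-1.31 ± 0.18, adjusted p = 4.7e-05). Cyclin D1 (Ccnd1), which drives entry into the cycle, read 42.9, 44.1 and 41.5 FPKM in PE and 19.4, 20.5 and 14.2 in Senexin A (-1.22 ± 0.20, adjusted p = 0.00026). Topoisomerase II alpha (Top2a, -1.06 ± 0.14, adjusted p = 4.2e-05) and the anaphase activator Cdc20 (-1.09 ± 0.18, adjusted p = 0.00032) were lower too, with the groups apart in every library. The replication factors Pcna (-0.36, adjusted p = 0.054) and Mcm6 (-0.42, adjusted p = 0.056) missed the threshold, and adding the replicate block called both (adjusted p 0.029 and 0.044). The cultures held cells of other types, whose part in these cell cycle values was not tested.

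Immediate early genes are transcribed within minutes of a stimulus and were measured here after 48 h. Of 24 tested of 25, 12 were lower (18.2% of all tested genes were), none was higher (15%) and 4 lay within the margin (51.4%). Their median was -0.55. PE had 8 higher (17.9% of all tested genes) and 1 lower (12.7%) than Vehicle. Senexin A had 1 higher (9.17%) and 8 lower (7.01%). Btg2, an antiproliferative early gene, read 61.6, 56.1 and 64.3 FPKM in PE and 23.1, 20.4 and 20.3 in Senexin A (-1.47 ± 0.094, adjusted p = 2.8e-08). The AP-1 subunit Jund read 145, 143 and 152 FPKM in PE and 57, 67.7 and 57.9 in Senexin A (-1.26 ± 0.11, adjusted p = 9.4e-07), and Ier3 190.2, 154 and 204 FPKM in PE and 82.8, 68.2 and 86.3 in Senexin A (-1.19 ± 0.15, adjusted p = 2.5e-05). For each of these genes every Senexin A library was below every PE library. The best known members were not called: Fos at -0.65, adjusted p = 0.089, Egr1 at -0.65, adjusted p = 0.4 and Myc at 0.40, adjusted p = 0.33. Fos (adjusted p = 0.011) and Myc (0.032) were called in opposite directions once the replicate block was added. Klf2, a Krüppel-like factor, read 19.3, 15.7 and 26.5 FPKM in PE and 7.56, 9.55 and 11.2 in Senexin A (-1.03 ± 0.29, adjusted p = 0.013), below the Vehicle values of 32.4, 23 and 34.9. Its call was lost without PE 3 or Senexin A 1 (adjusted p 0.063 and 0.053).

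Of 18 feedback inhibitors of MAP kinase signalling, 9 were lower (18.2% of all tested genes were) and 2 higher (15%), with a median of -0.45. PE had 9 higher than Vehicle (17.9% of all tested genes were). The dual-specificity phosphatases that switch off MAP kinases were the largest falls. Dusp4 read 19.9, 25.5 and 20.1 FPKM in PE and 4.33, 5.97 and 5.32 in Senexin A (-1.88 ± 0.21, adjusted p = 8.5e-06), and Dusp8 32.7, 35.2 and 44.7 FPKM in PE and 9.47, 9.29 and 9.77 in Senexin A (-1.86 ± 0.19, adjusted p = 3.6e-06). Dusp6, specific to ERK, was lower by less (-0.92 ± 0.23, adjusted p = 0.0056). In the opposite direction Errfi1 (MIG6), an inhibitor of the EGF receptor, read 7.17, 5.37 and 7.01 FPKM in PE and 27.7, 15.6 and 19.7 in Senexin A (1.52 ± 0.24, adjusted p = 0.0002), while PE and Vehicle differed by 0.01 ± 0.24. The EGF family ligand Hbegf was lower (-1.04 ± 0.12, adjusted p = 1.3e-05). The groups of Dusp4, Dusp8 and Errfi1 did not overlap.

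Heat shock proteins were lower for 9 of 19 (18.2% of all tested genes were) and higher for 1 (15%), with 8 within the margin (51.4%). Their median was -0.35. The falls named by size were small chaperones of muscle. Hspb6 (Hsp20) read 753, 631 and 625 FPKM in PE and 315, 243 and 223 in Senexin A (-1.37 ± 0.13, adjusted p = 1.5e-06), with a locus that overlaps Lin37, and Hspb1 (Hsp27) read 1116, 986 and 1004 FPKM in PE and 525, 436 and 422 in Senexin A (-1.17 ± 0.10, adjusted p = 5.3e-07). Hspb3 (-0.92 ± 0.16, adjusted p = 0.00031) and the cardiac Hspb7 (-0.88 ± 0.12, adjusted p = 3.5e-05) followed. None of the 4 overlapped between the groups. The 1 higher member lost its call without PE 3 or Senexin A 2.

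Glycolysis and glucose uptake split. Of 24 tested genes of 25, 10 were lower (18.2% of all tested genes were), 3 higher (15%) and 8 within the margin (51.4%). The median was -0.17, and the glucose transporter and the lactate transporter moved apart. The lactate exporter Slc16a3 (MCT4) read 57.6, 49.6 and 42 FPKM in PE, 12, 11.9 and 11.8 in Senexin A and 11.4, 11.3 and 13.1 in Vehicle (-1.97 ± 0.17, adjusted p = 5.8e-07). The muscle enolase Eno3 read 144, 130.2 and 93.4 FPKM in PE and 46.2, 26.9 and 28.7 in Senexin A (-1.84 ± 0.18, adjusted p = 1.5e-06), and Ldha (-0.58 ± 0.10, adjusted p = 0.0004) and Gapdh (-0.52 ± 0.11, adjusted p = 0.002) were lower. The basal glucose transporter Slc2a1 (GLUT1) read 24, 26 and 20.6 FPKM in PE, 54, 58 and 60.6 in Senexin A and 31, 23.2 and 21.2 in Vehicle, and was higher than in PE (1.26 ± 0.12, adjusted p = 2.3e-06) and than in Vehicle (1.18 ± 0.12, adjusted p = 3.1e-05). PE and Vehicle differed for Slc2a1 by -0.08 ± 0.12 (adjusted p = 0.66), and PE with 10 µM Senexin A read 106, 87.6 and 82.3 FPKM. Leaving out Senexin A 2 reduced the higher members of the list from 3 to 1.

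Oxidative phosphorylation was where Senexin A resembled PE most often among the metabolic lists. Of 29 genes tested of 30, 22 lay within the margin (51.4% of all tested genes did), 2 were higher (15%) and 3 lower (18.2%). The median was -0.02. Against Vehicle, 24 were higher in PE (17.9% of all tested genes were), with a median of 0.61. In Senexin A 25 were higher (9.17% of all were), with a median of 0.57. The complex IV subunit Cox4i1 read 1867, 1854 and 1608 FPKM in PE, 1741, 1915 and 1666 in Senexin A and 1295, 1265 and 1066 in Vehicle. PE and Senexin A overlapped, with a 95% interval of -0.23 to 0.23, and both stood above every Vehicle library. The ATP synthase subunit Atp5o read 1236, 1199.5 and 1077 FPKM in PE and 1146, 1312 and 1066 in Senexin A (interval -0.25 to 0.26), against 797, 822 and 685 in Vehicle.

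The exceptions included Cox8b, the heart and muscle form of complex IV subunit VIII, which read 742, 719 and 662 FPKM in PE and 1315, 1425 and 1353 in Senexin A (0.95 ± 0.14, adjusted p = 8.9e-05), and Ndufs1 of complex I, which was lower (-0.49 ± 0.13, adjusted p = 0.0085, and 0.051 without Senexin A 3). Cox6a2 was lower (-0.52 ± 0.17, adjusted p = 0.025), with adjusted p 0.054 to 0.13 without the filter on low values, with quantile normalization, and without PE 1, PE 2 or Senexin A 3. The count of lower members dropped from 3 to 1 without PE 1 or PE 2 and to 0 without Senexin A 3, and of higher members from 2 to 1 without PE 3 or Senexin A 2. With quantile normalization 8 were higher and 1 lower (median 0.09), and with the replicate block 4 higher and 6 lower. The tricarboxylic acid cycle lay between: 5 of 17 tested were lower (18.2% of all tested genes were), none was higher (15%) and 10 lay within the margin (51.4%). The median was -0.23. Higher than in Vehicle were 16 in PE (17.9% of all tested genes) and 12 in Senexin A (9.17%). The replicate block raised the lower members from 5 to 9. Pdha1, the catalytic subunit of pyruvate dehydrogenase, read 744, 674 and 646 FPKM in PE and 383, 391 and 329 in Senexin A (-0.90 ± 0.12, adjusted p = 3.1e-05), and Mdh2 (-0.50 ± 0.12, adjusted p = 0.0043) and Fh (-0.56 ± 0.13, adjusted p = 0.003) were lower by less.

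In ribosome biogenesis, 17 of 18 tested genes of 20 lay within the margin (51.4% of all tested genes did). There were 2 higher (15% of all) and 1 lower (18.2%), with a median of -0.02. Here PE itself differed little from Vehicle by its median of 0.06, with 5 genes higher (17.9% of all tested genes were). The 3 called genes were small and unstable: Bop1, whose locus overlaps Scx (-0.37 ± 0.12, adjusted p = 0.025), lost its call without PE 1, PE 3, Senexin A 2 or Senexin A 3, Polr1b (0.30 ± 0.090, adjusted p = 0.017) without PE 1 or Senexin A 2, and Gnl3 (0.28 ± 0.078, adjusted p = 0.013) without PE 3 or Senexin A 1.

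Single genes that PE moved far from Vehicle, and that Senexin A alone brought within the margin of PE, were taken by the size of the PE difference and are given as a description with no test. Tgm2, the tissue transglutaminase, read 331, 302 and 243 FPKM in PE, 291, 275 and 258 in Senexin A and 89.4, 72.6 and 72.7 in Vehicle (interval -0.37 to 0.21). Adprhl1, a cardiac ADP-ribosylhydrolase-like protein, read 88, 85.7 and 93.1 FPKM in PE and 116, 82.8 and 70.9 in Senexin A, with a Vehicle mean of 32.1 (interval -0.33 to 0.30). Rcan1, a calcineurin target and inhibitor, read 279, 277 and 266 FPKM in PE and 267, 259 and 212 in Senexin A, with a Vehicle mean of 116 (interval -0.46 to 0.14). PE and Senexin A libraries overlapped in all 3 and lay above all Vehicle libraries. The choice required that PE and Vehicle did not overlap and that the interval lay within the margin, so the likeness to PE was set by the choice.

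B3galt2 (means 16.4 in PE, 16.1 in Senexin A and 4.67 FPKM in Vehicle; its locus overlaps Cdc73), Ift43 (172, 186 and 68.4), Fsd2 (28.9, 27.7 and 11.2) and Rilp (15.1, 15.1 and 6.82) also stood above Vehicle in both treatments. Ppif, cyclophilin D of the mitochondrial permeability pore, had means of 77.8, 64.1 and 34.5 FPKM, and though within the margin it was called lower than in PE (-0.28 ± 0.093, adjusted p = 0.031). Of these 10 genes with Tpm1, 1 was lower than Vehicle: Ptgds, a prostaglandin D synthase, with 8.95 FPKM in PE, 10.3 in Senexin A and 19.9 in Vehicle. For all 10, PE with 10 µM Senexin A is a separate treatment, and its mean of 570.2 FPKM for Tgm2 and 292 for Ift43 was above both single treatments.

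The genes higher in Senexin A fell into several groups. The largest rise was Dhrs7c (chr10:54098499-54116883 on rn5), a reductase of the sarcoplasmic reticulum, which read 5.23, 3.03 and 6.24 FPKM in PE, 77.4, 118 and 134 in Senexin A and 23.9, 27.2 and 43.9 in Vehicle. It was higher than in PE (4.25 ± 0.33, adjusted p = 2.4e-07) and than in Vehicle (1.77 ± 0.33, adjusted p = 0.0021), while PE was lower than Vehicle (-2.48 ± 0.33, adjusted p = 4.9e-05), and these groups did not overlap. Trim50, an E3 ubiquitin ligase, read 0.175, 0.297 and 0.0535 FPKM in PE and 7.18, 11.4 and 8.88 in Senexin A (3.10 ± 0.20, adjusted p = 2.8e-08), with a Vehicle mean of 0.744. The groups did not overlap.

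Testin (3.78 ± 0.42, adjusted p = 7.3e-06), Tmem171 (2.50 ± 0.17, adjusted p = 4.3e-08), the carbonic anhydrase Car3 (2.26 ± 0.33, adjusted p = 7.9e-05) and the secreted WNT antagonist Sfrp2 (2.54 ± 0.44, adjusted p = 0.00036) were also among the largest rises, with no overlap between the groups. Sfrp2 read 5.99, 7.71 and 17.3 FPKM in Senexin A, highest in replicate 3, the library with the highest decorin (Dcn, 35.8, 50.8 and 126 FPKM). Decorin, a fibroblast marker, was not called (1.04, adjusted p = 0.27). The part of fibroblasts in this rise was not tested.

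Fatty acid oxidation and PPAR targets were higher for 12 of 28 tested genes of 29 and lower for 1, with a median of 0.28 and 8 within the margin (15% of all tested genes were higher and 51.4% within it). The higher members numbered 9 to 13 with 1 library left out and 11 to 17 under the other settings. Against Vehicle, Senexin A had 15 higher (9.17% of all tested genes were) and none lower (7.01%), with a median of 0.36. PE had 6 higher (17.9% of all) and 5 lower (12.7%). Angptl4, a secreted inhibitor of lipoprotein lipase, read 5.43, 3.78 and 4.05 FPKM in PE, 19.9, 18.5 and 17.4 in Senexin A and 19.4, 22.3 and 14.6 in Vehicle: the difference from PE was 1.87 ± 0.22, adjusted p = 1.2e-05, and from Vehicle 0.01 ± 0.22, adjusted p = 0.99. Plin5, a lipid droplet coat protein of oxidative tissue, read 2.72, 2.94 and 2.34 FPKM in PE and 11.8, 11.8 and 11.9 in Senexin A (1.81 ± 0.17, adjusted p = 1.3e-06) and exceeded Vehicle (1.43 ± 0.17, adjusted p = 6e-05). Fabp3, the heart fatty acid-binding protein (locus shared with Zcchc17), read 2113, 1896 and 1687 FPKM in PE and 5159, 5757 and 4709 in Senexin A (1.46 ± 0.21, adjusted p = 8.9e-05).

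The muscle carnitine palmitoyltransferase Cpt1b, the entry step for fatty acids into mitochondria, was higher (0.60 ± 0.13, adjusted p = 0.0023), as were the fatty acid translocase Cd36 (0.73 ± 0.13, adjusted p = 0.00048) and Cpt1a (0.82 ± 0.22, adjusted p = 0.01; adjusted p = 0.062 without PE 2). Their regulators rose too. Ppara, the nuclear receptor of this programme, read 5.99, 6.25 and 6.11 FPKM in PE and 14.8, 14.8 and 11.4 in Senexin A (1.03 ± 0.13, adjusted p = 2.5e-05), and the coactivator Ppargc1a read 18.3, 14.6 and 16.8 FPKM in PE and 27.5, 39.3 and 34.4 in Senexin A (0.98 ± 0.22, adjusted p = 0.0027). PE and Vehicle differed by -0.04 ± 0.13 and 0.09 ± 0.22 for these regulators, neither called.

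Of 20 tested cardiac transcription factors of 21, 10 were higher (15% of all tested genes were) and 2 lower (18.2%), with a median of 0.22. Hopx, a homeodomain-only cofactor of cardiac differentiation, read 25.1, 18.8 and 19.7 FPKM in PE, 107, 109 and 93 in Senexin A and 38.8, 27.3 and 22.9 in Vehicle (2.24 ± 0.19, adjusted p = 6.8e-07). Irx4, a ventricular homeobox factor, read 21.1, 31.2 and 24.8 FPKM in PE and 52.4, 87.9 and 64.3 in Senexin A (1.36 ± 0.20, adjusted p = 9.8e-05). Neither gene's groups overlapped. The lower members went from 2 to 1 without PE 1, PE 3 or Senexin A 1, and to 0 without PE 2 or Senexin A 3.

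Calcium handling genes moved in both directions: of 16, 3 were higher (15% of all tested genes were) and 2 were lower (18.2%), among them Casq1 above. Within the margin lay 6 (51.4% of all tested genes did), and the median was -0.01. The calcium pump Atp2a2 (SERCA2), which refills the sarcoplasmic reticulum, read 907, 646 and 573 FPKM in PE, 1585, 1629 and 1267 in Senexin A and 709, 653 and 593 in Vehicle. Every Senexin A library was above all PE and Vehicle libraries (1.09 ± 0.19, adjusted p = 0.00042 from PE, 1.19 ± 0.19, adjusted p = 0.0007 from Vehicle). Its inhibitor phospholamban (Pln) read 1024, 1185 and 1018 FPKM in PE and 1649, 2031 and 1863 in Senexin A (0.78 ± 0.12, adjusted p = 0.00012), and the L-type calcium channel Cacna1c 24.8, 25.7 and 24 FPKM in PE and 39.7, 48.2 and 47.7 in Senexin A (0.83 ± 0.12, adjusted p = 9.8e-05). The release channel Ryr2 was not called (0.28, adjusted p = 0.19). Of 16 ion channel genes tested of 19, 6 were higher (15% of all tested genes were) and 1 lower (18.2%), with a median of 0.52. The gap junction protein connexin 43 (Gja1) read 218, 229.5 and 237 FPKM in PE and 414, 475 and 499 in Senexin A (1.01 ± 0.10, adjusted p = 1.5e-06), close to the Vehicle values of 405, 419.7 and 414. The ATP-sensitive potassium channel Kcnj11 (1.10 ± 0.087, adjusted p = 2.7e-07) and the T-type calcium channel Cacna1h (1.15 ± 0.15, adjusted p = 3e-05, locus shared with Tpsg1) were higher.

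An alpha1-adrenergic receptor was among the genes higher in Senexin A. Adra1b, a receptor of the family that PE activates, read 4.74, 4.94 and 5.12 FPKM in PE, 14.9, 14.9 and 18.4 in Senexin A and 10.2, 8.9 and 8.93 in Vehicle, with no overlap between these groups. It was lower in PE than in Vehicle (-0.80 ± 0.13, adjusted p = 0.00038) and higher in Senexin A than in either (1.52 ± 0.13, adjusted p = 7.6e-07 from PE and 0.72 ± 0.13, adjusted p = 0.0021 from Vehicle). Adrb1, the main beta-adrenergic receptor of the heart, read 8.99, 8.91 and 7.31 FPKM in PE and 16.6, 23 and 17.4 in Senexin A (1.08 ± 0.15, adjusted p = 4e-05). Of 17 tested members of this list of 19, 5 were higher (15% of all tested genes were) and 1 lower (18.2%), with a median of 0.17. Leaving out PE 3 reduced the higher ones to 3, and with the replicate block 3 were lower. Among these 5, Rgs5 is also a pericyte marker (1.97 ± 0.54, adjusted p = 0.01), and lost its call without PE 3 (adjusted p = 0.058).

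**Figure D4:**
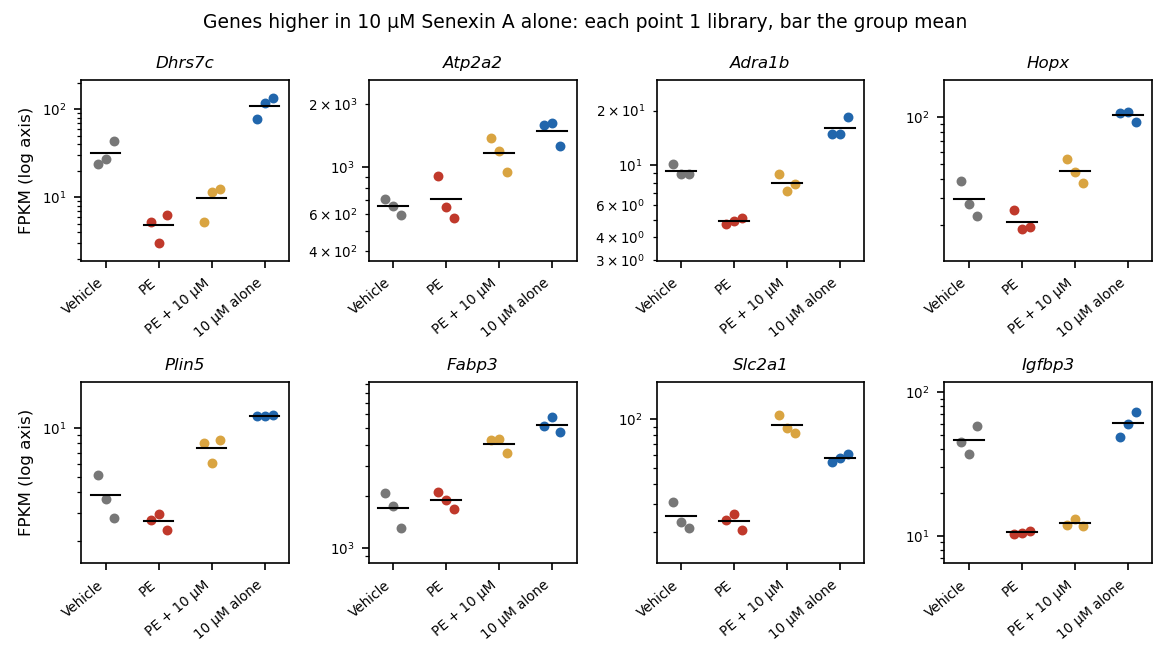
Each panel is 1 gene, with FPKM on a log axis, 1 point per library and a bar at the group mean for the same 4 groups as in the panels of hypertrophic genes. In each panel all Senexin A libraries lie above all PE libraries, and for Dhrs7c the means are 4.83 and 109.8 FPKM beside 31.7 in Vehicle.

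The insulin-like growth factor axis contained several of the largest rises. Igfbp3, the main carrier of IGFs, read 10.3, 10.5 and 10.9 FPKM in PE, 48.8, 59.8 and 73.1 in Senexin A and 44.6, 37.2 and 58.1 in Vehicle (2.39 ± 0.14, adjusted p = 2.1e-08 from PE, 0.37 ± 0.14, adjusted p = 0.081 from Vehicle). Igfbp5 read 2.25, 0.416 and 1.22 FPKM in PE and 18, 10.7 and 26 in Senexin A (3.07 ± 0.48, adjusted p = 0.00016). The imprinted neighbours Igf2 and H19 were higher together: Igf2, a fetal growth factor, read 1.22, 1.19 and 2.36 FPKM in PE and 8.54, 9.56 and 12.1 in Senexin A (2.11 ± 0.25, adjusted p = 1.2e-05), and the long noncoding RNA H19 4.99, 4.24 and 8.41 FPKM in PE and 27.1, 25.8 and 49.9 in Senexin A (2.34 ± 0.41, adjusted p = 0.00042). Both loci hold a microRNA entry in the annotation. Over the 19 tested growth factor genes of 21, 5 were higher (15% of all tested genes were) and 5 lower (18.2%), with a median of 0.17. Without PE 1, Senexin A 2 or Senexin A 3 the lower ones were 2.

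Muscle ubiquitin ligases and autophagy genes were higher for 6 of 12 (15% of all tested genes were) and lower for none (18.2%). Within the margin lay 7 (51.4% of all tested genes did), and the median was 0.21. Atrogin-1 (Fbxo32), which marks sarcomeric proteins for degradation, read 14.9, 15.7 and 18.2 FPKM in PE, 30.1, 37.5 and 48.9 in Senexin A and 27.4, 23.7 and 27.2 in Vehicle (1.18 ± 0.14, adjusted p = 1.1e-05). Its activator Foxo1 read 4.21, 4.09 and 4 FPKM in PE and 8.15, 9.53 and 9.4 in Senexin A (0.97 ± 0.13, adjusted p = 4.6e-05), and MuRF1 (Trim63) was higher by less (0.57 ± 0.075, adjusted p = 3.4e-05). Hypoxia and angiogenic genes were higher for 5 of 13 (15% of all tested genes were) and lower for none (18.2%), with a median of 0.45. Adrenomedullin (Adm), a vasodilator peptide, read 6.08, 6.76 and 6.89 FPKM in PE, 23.6, 30.3 and 30.1 in Senexin A and 23.6, 21.2 and 25.7 in Vehicle (1.93 ± 0.19, adjusted p = 2.1e-06), so that Senexin A stood near Vehicle while PE was lower (-1.69 ± 0.19, adjusted p = 9.1e-06). The oxygen sensor Egln3 was higher (1.12 ± 0.25, adjusted p = 0.0024).

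Further lists are given by their counts, beside 15% higher and 18.2% lower over all tested genes. In PE against Vehicle, 12.7% of all tested genes were lower. In the unfolded protein and integrated stress response, 5 of 22 tested were higher (15% of all tested genes were; median 0.25), led by Herpud1 (0.88 ± 0.20, adjusted p = 0.0032) and the serine synthesis enzyme Phgdh (0.82 ± 0.15, adjusted p = 0.00056), and 9 were lower in PE than in Vehicle; without PE 2 or Senexin A 3 the higher members were 3 and 2. Of 20 antioxidant genes, 4 were higher and 3 lower, with Hmox1 higher (0.89 ± 0.28, adjusted p = 0.021; 0.095, 0.061 and 0.074 without PE 3, Senexin A 1 and Senexin A 2) and Gpx1 (-0.89 ± 0.16, adjusted p = 0.00059) and Nqo1 (-0.83 ± 0.23, adjusted p = 0.0098, and 0.057 without PE 2) lower. Of 18 interferon and STAT genes tested of 23, 2 were lower, Ifit1 (-1.50 ± 0.18, adjusted p = 1.3e-05) and Stat3 (-0.82 ± 0.085, adjusted p = 3.6e-06). Of 12 NF-kB and inflammatory genes tested of 18, none was called by limma in the fit without a block, and 1 was lower with the replicate block. In the extracellular matrix 2 of 21 tested were higher, elastin (Eln, 1.59 ± 0.43, adjusted p = 0.0092, and 0.052 without Senexin A 3) and Col6a2 (0.81 ± 0.20, adjusted p = 0.0046), and 1 lower (Lox, -0.95 ± 0.24, adjusted p = 0.0063, locus shared with Zfp474), and with the replicate block 7 were higher and 5 lower. Without Senexin A 3 the counts were 1 higher and 2 lower. Of the 16 tested TGF-beta and SMAD targets, Id2 was higher (1.14 ± 0.16, adjusted p = 6e-05), and Ctgf (-0.74 ± 0.21, adjusted p = 0.014) and Cyr61 (-0.80 ± 0.29, adjusted p = 0.044) were lower. Ctgf lost its call without PE 3 or Senexin A 2 and with quantile normalization (adjusted p 0.07, 0.072 and 0.087), and Cyr61 in 7 settings, among them the omission of PE 1, PE 3, Senexin A 1 or Senexin A 2 (0.065 to 0.19). Of 12 calcineurin and NFAT genes 3 were lower and none higher (median -0.13): Myoz2, the immunophilin Fkbp1a (-0.70 ± 0.095, adjusted p = 4.4e-05) and the calcineurin catalytic subunit Ppp3cb (-0.41 ± 0.093, adjusted p = 0.003). The replicate block also moved other list counts: higher members became 2 among fetal genes, 2 among immediate early genes, 5 in glycolysis, 1 in calcineurin, 2 in interferon and 2 among TGF-beta genes, and lower members became 5 among antioxidant genes, 3 in ribosome biogenesis, 2 in hypoxia and 1 in the unfolded protein response.

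**Figure D5:**
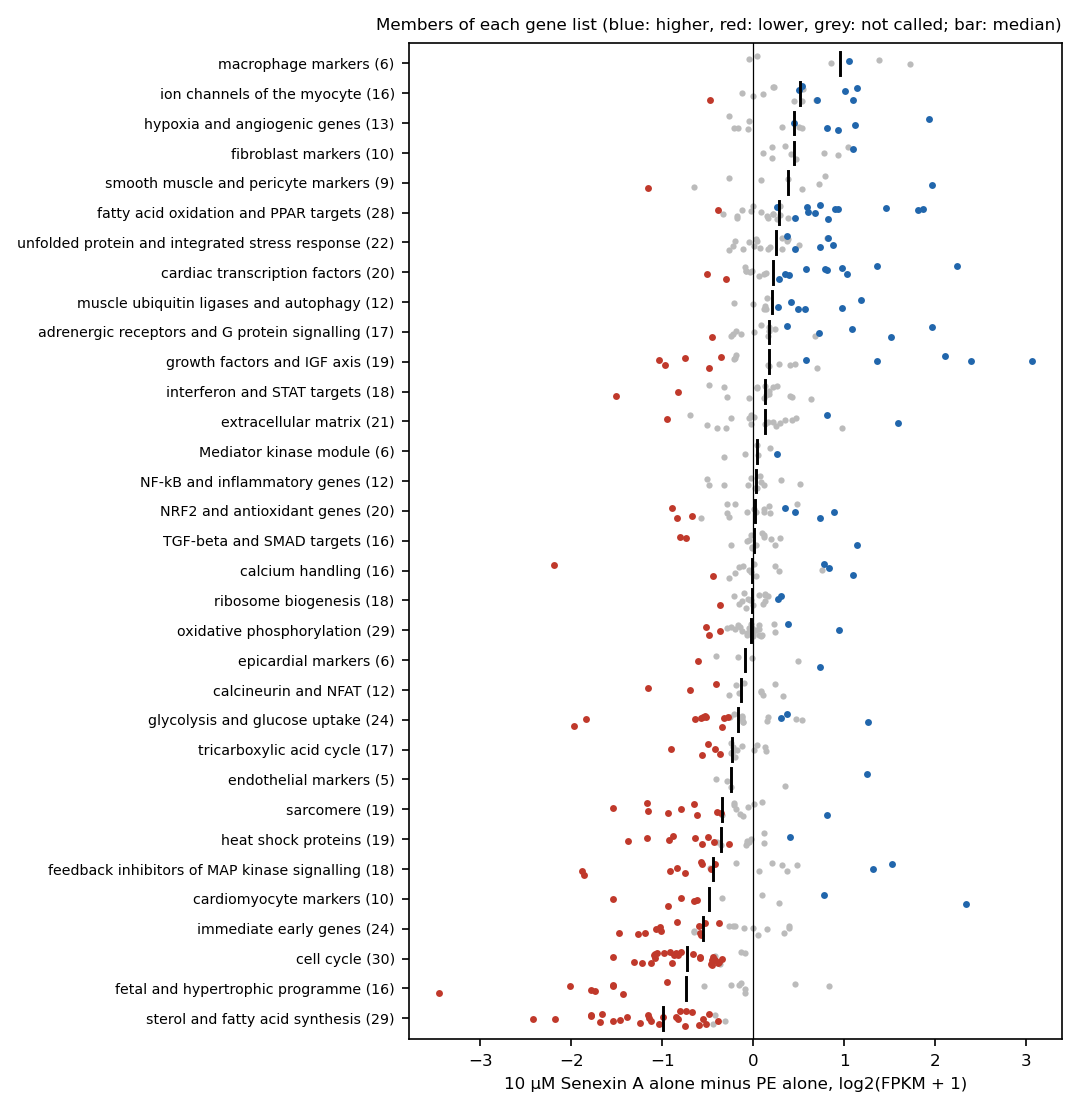
Each point is a tested member of 1 of 33 gene lists (number of members in brackets), placed by its difference of 10 µM Senexin A alone minus PE alone on the log2(FPKM + 1) scale, in blue or red where called higher or lower and in grey where not called, with a bar at the list's median. The bars run from -0.99 for sterol and fatty acid synthesis to 0.95 for macrophage markers, of which 1 of 6 was called, and oxidative phosphorylation and ribosome biogenesis lie at -0.02.

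No difference was called for the transcripts of the drug's target kinases. Cdk8 read 13.2, 11.3 and 14.5 FPKM in PE and 14, 13.7 and 12.3 in Senexin A (0.04, adjusted p = 0.83, 95% interval -0.20 to 0.27), and Cdk19 6.33, 5.25 and 6.99 FPKM in PE and 6.92, 6.25 and 8.41 in Senexin A (0.19, adjusted p = 0.43, interval -0.17 to 0.55). The groups overlapped for both kinases. Cyclin C (Ccnc, interval -0.28 to 0.10) and Med13 (interval -0.18 to 0.29) were not called either. Med12, which activates the kinase, read 6.27, 6.09 and 6.25 FPKM in PE and 7.59, 7.54 and 7.71 in Senexin A (0.26 ± 0.081, adjusted p = 0.022), with groups that did not overlap, and the call was lost without PE 2 or Senexin A 3 and when the compared groups alone were fitted (adjusted p 0.064, 0.062 and 0.059). Of the 6 module genes tested, 4 lay within the margin (51.4% of all tested genes did). These are transcript levels, and kinase activity was not measured in these libraries.

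In the fit without the replicate block, markers of other cell types moved with few calls, beside 15% higher and 18.2% lower over all tested genes. More of them were called with the block. Of 10 tested fibroblast markers 1 was higher, Postn (1.10 ± 0.36, adjusted p = 0.029), a call lost without PE 1, PE 2 or Senexin A 3 (adjusted p 0.088, 0.13 and 0.15). Of 6 tested macrophage markers 1 was higher, C1qa (1.06 ± 0.37, adjusted p = 0.04), a call lost without any of 5 libraries (all but Senexin A 3), and Cd68 (1.39, adjusted p = 0.081) and Lyz2 (1.72, adjusted p = 0.21) were not called. Of 5 tested endothelial markers 1 was higher, Esam (1.25 ± 0.26, adjusted p = 0.0014), while the median of the 5 was -0.24. Of 9 smooth muscle and pericyte markers 1 was higher, Rgs5, and 1 lower, Cnn1 (-1.16 ± 0.27, adjusted p = 0.004). Of 6 tested epicardial markers 1 was higher, Tbx18 (0.73 ± 0.19, adjusted p = 0.0067), and 1 lower, Upk1b (-0.61 ± 0.21, adjusted p = 0.037), the latter lost without PE 2, PE 3, Senexin A 2 or Senexin A 3 (adjusted p 0.054 to 0.17). With the replicate block, 7 fibroblast, 4 macrophage, 4 smooth muscle and 2 endothelial markers were higher, among them Dcn, Cd68, Lyz2 and Col1a1 (adjusted p 2.3e-05, 4.4e-05, 0.00033 and 0.043 by limma). That block called 4621 of all 10478 tested genes, 47.9% of them higher. Atrial light chain Myl7 read 1117, 471 and 93.8 FPKM in PE and 1734, 887 and 182 in Senexin A, so its level differed more between replicate numbers than between treatments, and it was called with the block only (0.83, adjusted p = 0.64 without it, adjusted p = 5.7e-05 with it).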

How the data were processed

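Polyadenylated RNA was sequenced from 18 libraries in 6 groups of 3, grouped by their titles. The table deposited by the authors gives 1 FPKM value per gene and library, made with Bowtie2 and Cufflinks on rn5, per the submitters' processing notes. For versions, annotation, filters and strand the sources used here give nothing. The smallest value is 0.01 FPKM. FPKM shares a library among its genes, so a shift of the most abundant genes moves all others, and no counting interval can be given because total reads are unknown. Low values compared with PE replicate 1 gave a relative depth of 0.9862 to 1.094 for PE and 0.9395 to 1.028 for Senexin A. Of 17303 genes listed, 14801 names match a GRCr8 RefSeq symbol and 16914 a symbol or synonym, and 1006 tested genes share their locus with another entry, which makes their values uncertain.

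The test took the 10478 genes that reached 1 FPKM in 3 or more libraries, as log2(FPKM + 1), in limma 3.58.1 (R 4.3.3) with a variance trend, all 6 group means (12 residual degrees of freedom) and Benjamini-Hochberg adjustment. The test was checked on simulated data. Tables, promoter searches and figures used Python 3.11.15 with pandas 2.3.3, matplotlib 3.10.9 and numpy 2.4.6. Alternatives were pseudocounts of 0.1 and 0.5, other filters, quantile and median-ratio scaling, the compared groups only, array weights, no variance trend, a replicate block, a minimum difference of 1 and the omission of each library.

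Same-numbered libraries of different groups deviated together (r of 0.213 to 0.587 over 45 pairs, and 0.386 to 0.52 over the 3 pairs of PE and Senexin A, against -0.462 to 0.0949 for other numbers), so the numbers pair the libraries, though the labels do not say what a number marks. The fit without the block was kept as the reference, so its intervals and uncalled genes take no account of that pairing. With the block, the genes called went from 3478 to 4621 between Senexin A and PE. Against Vehicle, those of Senexin A went from 1696 to 2761. Blocked values are given for named genes whose call between Senexin A and PE they change. For single genes against Vehicle, blocked values were not examined.

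Named genes were the 10 largest rises and 10 largest falls with at least 5 FPKM and no overlap, up to 3 called members of each of 33 lists (591 genes), a panel of hypertrophic and Mediator genes, and up to 10 genes that PE moved and whose interval lay within 0.5. The last were taken only where PE and Vehicle did not overlap and either mean reached 5 FPKM. Some genes of the rule are not reported here. A further 34 genes, and the Fdps promoter, were chosen after their values were seen. The comparison, the rule and the lists were chosen with earlier results of these data known.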

Additional observations from a re-analysis of the deposited data

How the results depend on the processing

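Without the block, 3478 genes were called between Senexin A and PE, and 3072 to 4621 under the settings that kept all libraries and set no minimum difference (4621 with the replicate block, which held all 3478). The counts fell to 2728 to 3133 with 1 library left out and to 437 with a minimum difference of 1. Genes within 0.5 numbered 8936 with no filter and 4734 to 4944 with 1 library left out. PE against Vehicle gave 334 with a minimum difference of 1 and 2162 to 2846 with 1 library left out. Senexin A against Vehicle gave 2761 with the replicate block, 125 with a minimum difference of 1, and 948 to 1457 with 1 library left out (948 without Senexin A 2, 1005 without Vehicle 3). The share of higher genes among those called ran from 43.1% to 49.2%. Of 141 named genes with a test, 121 were called, 94 of them in every setting run, and none changed sign; of the 107 set by the rule, 103 were called and 79 kept in every setting. Uncalled genes near 0 changed sign: Cox4i1 was 0.0485 with quantile normalization, 0.00617 with median-ratio scaling, 0.00576 with array weights and -0.0713 to 0.0429 with 1 library left out, where Cdk8 ran from -0.0544 (without PE 2) to 0.116, Atp5o from -0.0803 to 0.0694 and Myl7 from -0.147 (without PE 3) to 1.75. Single libraries also moved list counts: higher fibroblast markers were 3 without PE 3, higher smooth muscle markers 0 without PE 3 and 3 without Senexin A 2, and higher macrophage markers 2 without Senexin A 3. The cause was not tested. Low genes are the least precise, since each library's absolute depth is unknown.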
